A study of Caenorhabditis elegans with 2 samples.

Results

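The peaks described here are sites of UNC-42 recovery whose summit lies at a GA repeat, a run of the guanine-adenine dinucleotide. A peak was counted as a GA-repeat peak where the window of 100 bp to either side of its summit held 4 or more tandem copies of GA on either strand. Of 4780 peaks in the authors' optimal set by IDR, the irreproducible discovery rate (which scores how repeatable the peak order is across replicates), 558 met this rule, or 11.7%. The exact Clopper-Pearson 95% interval of that share was 10.8 to 12.6%, and like the other intervals here it covers counting error only. The choice used the genome sequence under each summit and no signal value.

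The data came from chromatin immunoprecipitation followed by sequencing (ChIP-seq) in Caenorhabditis elegans. Hermaphrodites of strain OP173, whose transgene adds GFP-FLAG to the C terminus of UNC-42, were taken whole as late embryos 3 hours after synchronisation by bleaching. The description in the labels names an antibody against GFP and the antibody entry names unc-42; the description is followed here. There was 1 group with 2 biological replicates and no second condition, so all comparisons are between places in the genome. An embryo holds many cell types, and these lists cannot show in which of them a site was occupied. No libraries without the tag were analysed here, the control behind the peak calls was not analysed either, and read depth is unknown.

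UNC-42 is a paired-type homeodomain protein that fixes the identity of several neuron classes, and homeodomains usually recognise short sites with a TAAT core. Tandem GA repeats are a different kind of sequence: all purines on one strand and all pyrimidines on the other. In Drosophila they are bound by the GAGA factor, which keeps promoters accessible, and in C. elegans the zinc finger protein EOR-1 is known to bind GA-rich DNA. Regions that many unrelated factors seem to occupy in ChIP-seq are common in worm embryos and are often open chromatin.

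The stretches below show what the repeats look like, with the GA copies in capitals and up to 20 bases on each side. All were read from the RefSeq sequence of WBcel235, the assembly known as ce11, on the strand that reads GA. The first stretches come from GA-repeat peaks of the highest signal and are named by the nearest protein-coding gene. They are a selection, since not every member of highest signal is printed. The runs printed here had 4 to 7 copies, but longer runs also occurred among the 15 members of highest signal. At gsa-1 the run had 18 copies, counted past the edge of its window. F19C7.3 lies at chrIV:4586071-4586118 (minus strand), pqn-41 at chrIII:1921588-1921641 (plus strand), sor-1 at chrIII:8417129-8417178 (minus strand) and fmi-1 at chrV:13024638-13024685 (plus strand).
F19C7.3: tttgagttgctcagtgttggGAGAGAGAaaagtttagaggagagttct
pqn-41: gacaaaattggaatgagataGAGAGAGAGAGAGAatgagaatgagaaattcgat
sor-1: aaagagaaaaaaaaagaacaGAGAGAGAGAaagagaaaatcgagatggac
fmi-1: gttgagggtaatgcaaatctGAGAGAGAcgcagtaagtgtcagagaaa

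The next stretches are a selection of long runs, with the longest at sea-2 and affl-2, and show how pure they are. Not every run of 18 or more copies is printed. The sea-2 stretch lies at chrII:3959931-3960034 (minus strand), the affl-2 stretch at chrIII:433075-433166 (minus strand) and the daf-2 stretch at chrIII:3037378-3037457 (plus strand). The Y42G9A.3 stretch, at chrIII:6141752-6141821 (minus strand), shows a long run broken by a pair of guanines, which the rule counts as separate repeats.
sea-2: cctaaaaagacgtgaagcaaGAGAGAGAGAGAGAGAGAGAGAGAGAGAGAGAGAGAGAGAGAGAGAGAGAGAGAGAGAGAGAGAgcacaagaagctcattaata
affl-2: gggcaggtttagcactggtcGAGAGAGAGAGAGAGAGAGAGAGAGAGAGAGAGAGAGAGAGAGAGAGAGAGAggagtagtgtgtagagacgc
daf-2: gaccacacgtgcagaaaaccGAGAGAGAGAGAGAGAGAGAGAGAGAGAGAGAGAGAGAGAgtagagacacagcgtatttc
Y42G9A.3: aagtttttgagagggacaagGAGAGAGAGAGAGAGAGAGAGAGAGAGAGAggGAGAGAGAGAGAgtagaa

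A whole summit window is given for K12H4.5, at chrIII:8043880-8044080 (minus strand), to show how little of the window the repeat takes up in a strong member. The peak was intergenic, and its summit lay 507 bp upstream of the gene.
K12H4.5: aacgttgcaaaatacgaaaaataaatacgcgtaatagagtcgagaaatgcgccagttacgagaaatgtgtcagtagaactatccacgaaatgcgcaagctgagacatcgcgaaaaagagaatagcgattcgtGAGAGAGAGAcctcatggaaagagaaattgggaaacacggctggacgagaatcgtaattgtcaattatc

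The longest GA run had 4 copies in 258 of the 558 peaks (46.2%), 5 copies in 121 and 6 or more in 179. Runs of 10 or more copies were found in 31 peaks, and the longest run had 32 copies. In 15 peaks the run continued past the edge of the window, and copies were counted to its true end. The repeat was alone in the window of 482 peaks and had company from at least 1 further GA repeat in 76. The unbroken purine tract around the run had a median length of 15 bases and reached 86 bases. It was at least 4 bases longer than the run in 300 peaks. The members do not share repeats, since the 558 peaks held 558 distinct longest runs, and their summits formed 553 clusters when those less than 1 window length apart were joined.

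The place of the repeat within the window was spread out. The centre of the longest run within the window lay a median of 48.5 bp from the summit, within 50 bp in 296 peaks (53%) and within 25 bp in 151 (27.1%). Since the rule asks for a repeat within 100 bp, these values describe the members and are no evidence of closeness to the summit. The profile over all summits reaches beyond the window. In bins of 50 bp, a GA repeat was centred in the bin just left of 3.56% of summits and in the bin just right of 3.39%. The share fell to 1.34% and 1.30% in the bins 150 to 200 bp away on the left and right.

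**Figure D1:**
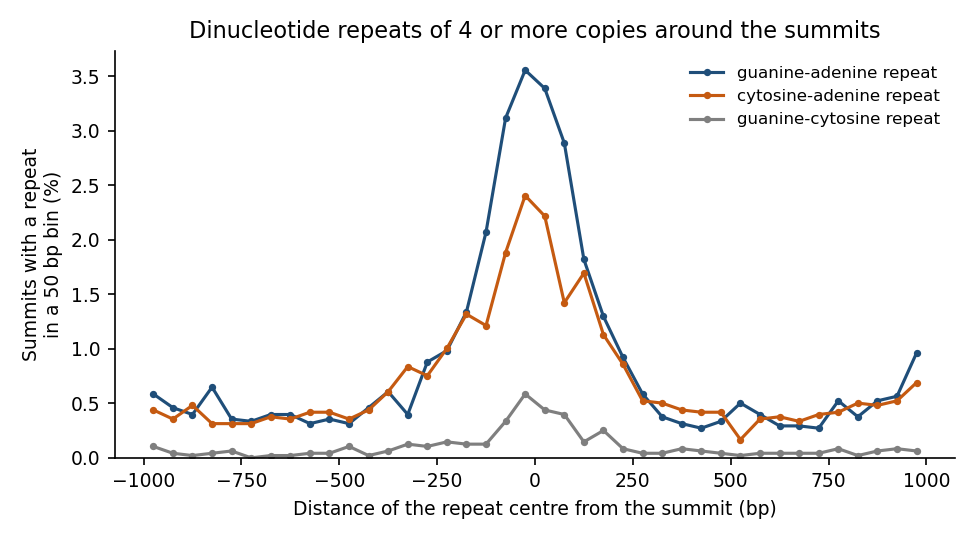
Percentage of the 4780 summits with a dinucleotide repeat of 4 or more copies centred in each 50 bp bin (y axis) against distance from the summit in bp (x axis), with 1 line per repeat. Guanine-adenine repeats reached 3.56% and cytosine-adenine repeats 2.41% in the bin just left of the summit, and both dropped towards the ends of the plotted range.

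As a background for the count, 2.19% of 9560 windows of the same length centred 1000 bp to either side of the summits held a GA repeat, as did 1.32% of 498866 windows tiled over the genome. GA was one of 5 repeats compared in this way. CA repeats of 4 or more copies were at 351 summits (7.34%) against 2.13% of flanks, a ratio of 3.44 (exact McNemar test of summit against flank, two-sided, adjusted p = 5.89e-30). GC repeats were at 82 summits (1.72%) against 0.262% of flanks, a ratio of 6.56 (exact McNemar adjusted p = 1.23e-13). GAA repeats, with 4 copies of the trinucleotide, were at 127 summits (2.66%) against 0.586%, a ratio of 4.54 (exact McNemar adjusted p = 2.87e-16). TA repeats went the other way, with 19 summits (0.397%) against 0.994% of flanks, a ratio of 0.40 (exact McNemar adjusted p = 0.000756). GA, at a ratio of 5.34, was thus the most frequent of the 5 repeats at summits but not the one with the highest ratio, and differences between the ratios were not tested.

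From the side of the genome, 649 of 7137 GA repeats of 4 or more copies (9.09%) had their centre within 100 bp of a summit. The share was 7.37% (95% interval 6.62 to 8.19%) of the 4353 repeats with 4 copies and 11.6% (9.81 to 13.6%) of the 1155 with 5 copies. It was 15% (11.5 to 19.1%) of the 360 with 8 or 9 copies. Of the 135 repeats with 15 or more copies 7 were at a summit, or 5.19% (2.11 to 10.4%). Repeats of 8 or 9 copies were thus at summits more often than repeats of 4 copies beyond counting error, while the interval for the longest class overlapped that of 4 copies. Whether reads align as well to the longest runs was not tested.

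**Figure D2:**
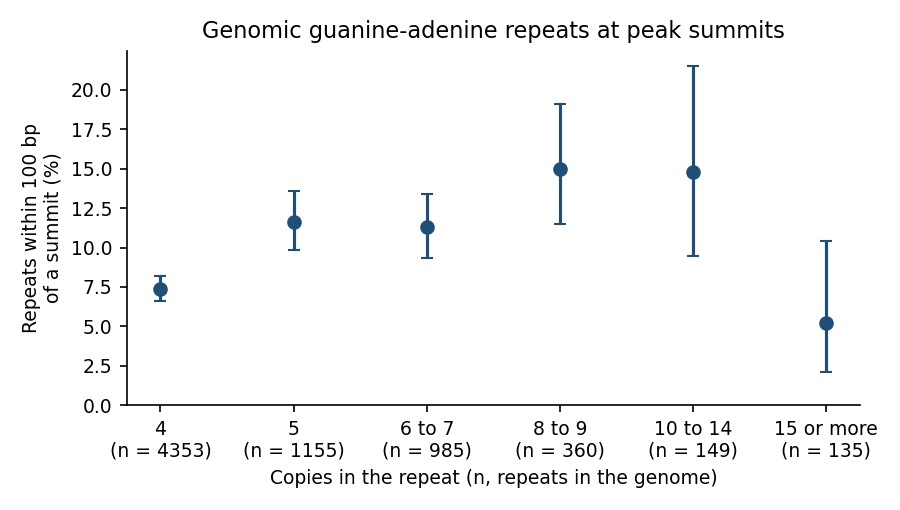
Percentage of the genome's guanine-adenine repeats that lay within 100 bp of a summit (y axis) by number of copies (x axis, with the number of repeats in the genome as n). Points are shares and bars exact 95% intervals of counting error; the share was 7.37% at 4 copies, 15% at 8 or 9 and 5.19% at 15 or more.

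The signal value of each peak, a score from the authors' peak caller with its own scale in each list, was slightly higher in the GA-repeat peaks. Their median was 148 (quartiles 108 and 214, range 81.6 to 1056), against 137 (quartiles 103.9 and 203, range 81.7 to 1404) for the other 4222 peaks. Of the GA-repeat peaks 312 (55.9%) exceeded the median of all peaks, against 49.2% of the others. That is an odds ratio, the odds among GA-repeat peaks divided by the odds among other peaks, of 1.31 (Fisher's exact test, two-sided, p = 0.00338). The threshold was not passed at the top of the list. For the upper 10% of peaks the odds ratio was 1.10 (Fisher's exact p = 0.548), and among the peaks above the median a further split at their own median gave 0.971 (p = 0.855). In a split chosen after seeing the data, peaks within 2000 bp of a 5′ end gave 1.48 (Fisher's exact p = 0.00222) and peaks farther away 1.13 (p = 0.394). The difference between these 2 was not tested. Of the 240 peaks of highest signal, 31 (12.9%) had a GA repeat, and so did 2 of the first 10. More copies did not go with a steady rise, since the median signal was 145 with 4 copies, 138 with 5, 152 with 6 or 7, 180 with 8 or 9 and 152 with 10 or more. Peaks just outside the rule, whose longest run had 3 copies, numbered 1280 and had a median of 147.

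The repeat was found at similar rates in both replicates. Among the 4780 entries of highest signal in each replicate's own list, 564 (11.8%) held it in replicate 1 and 522 (10.9%) in replicate 2. A summit among these entries lay within 100 bp of the member's summit in both replicates for 440 GA-repeat peaks (78.9%), against 76.6% of other peaks (odds ratio 1.14, Fisher's exact p = 0.240). That left 113 members in the upper part of 1 list only and 5 in neither, although 542 were found somewhere in the list of replicate 1 and 551 in that of replicate 2. Down the lists the share fell in both replicates. In replicate 1 it was 13.3% of ranks 1 to 1000, 5.42% of ranks 4781 to 10000 and 2.67% from rank 15001 on. In replicate 2 it was 12.5%, 6.44% and 2.98% of the same ranks. Flanking windows stayed between 1.72 and 2.27% in every rank class of replicate 1.

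**Figure D3:**
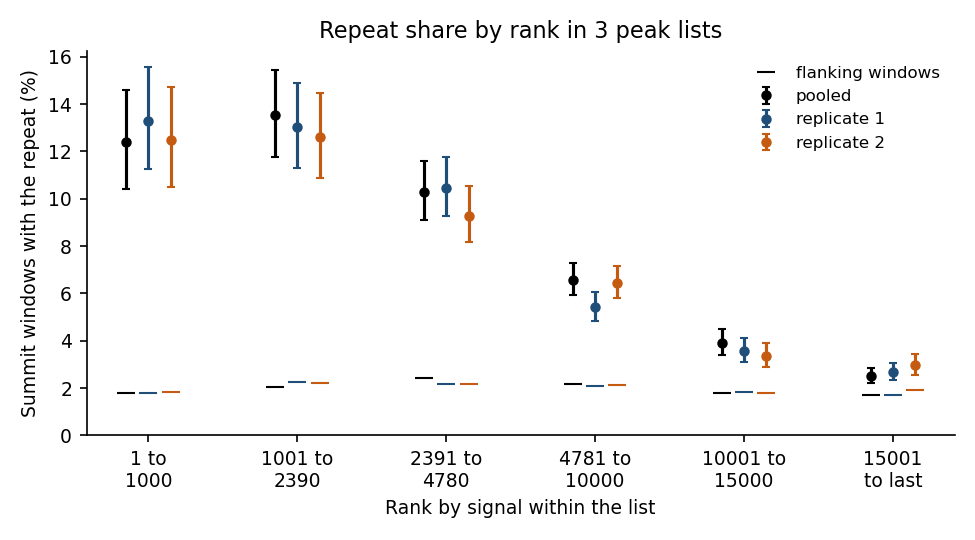
Percentage of summit windows with the repeat (y axis) by rank of signal (x axis) in the pooled list and each replicate list. Points are shares with exact 95% intervals and short horizontal lines are the flanking windows; the share went from 12.4% of the first 1000 pooled entries to 2.52% of the last class, while the flanks lay near 2%.

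The strongest members were a mixed group of genes. The summit of highest signal among them had rank 5 of all peaks, at 1056 in the pooled list, 451 in replicate 1 (rank 6) and 602 in replicate 2 (rank 3). It lay in an intron of another gene, 10936 bp upstream of F19C7.3, the nearest protein-coding 5′ end. Under the limit of 2000 bp it was given no target gene. Only the outermost 5′ end of each gene was used, so starts inside genes were not considered. The K12H4.5 summit had 949 in the pooled list, 426 in replicate 1 (rank 10) and 530 in replicate 2 (rank 11). The pqn-41 summit, deep in an intron of a gene for a glutamine-rich protein linked to the death of the linker cell, had 869, with 363 in replicate 1 and 503 in replicate 2. All 3 of these stood in the first 20 ranks of both replicate lists.

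Transcription and signalling genes followed. The aha-1 summit, 145 bp upstream of the gene for the worm relative of ARNT, a bHLH-PAS factor that pairs with other bHLH proteins, had 732 (304 in replicate 1, 428 in replicate 2) with 4 copies. The sor-1 summit, 1084 bp upstream of a gene that keeps Hox genes silent, had 700 (326 and 371 in the replicates). The gsa-1 summit, in an intron of the gene for the stimulatory G protein alpha subunit, had 546 (214 and 337). Its run of 18 copies was among the 8 longest, but it continued past the edge of the window. The part inside the window was centred 95.5 bp from the summit. The fmi-1 summit, in an intron of the Flamingo cadherin gene that guides axons, had 594 (269 and 329). The remaining strong members were nearest to ndx-8, a nudix hydrolase gene, gopc-1, lev-11, which encodes tropomyosin, lev-10, needed to cluster acetylcholine receptors at the muscle, R05C11.4, hsp-1, an Hsp70 gene, Y24D9A.7 and mab-20, a semaphorin gene. Their signals ran from 647 for ndx-8 down to 470 for mab-20. All 15 stood within the first 142 ranks of both replicate lists, and 8 of the 15 had a run of 4 copies, the least the rule accepts.

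The members with the longest runs covered a wide range of signal. The sea-2 summit, with 32 copies in an intron, had a signal of 91.3, with 49.2 in replicate 1 and 42.6 in replicate 2. The sea-2 run continued past the edge of the window, and the part inside was centred 85.5 bp from the summit. The affl-2 summit, 1742 bp upstream of an AF4/FMR2 family gene, had 26 copies and 98 (55.8 and 39.2). The daf-2 summit, in an intron of the insulin receptor gene, had 20 copies and 111 (58.5 and 53.6). Summits at sea-2 and affl-2 were in the upper 4780 of replicate 1 and below it in replicate 2. Runs of 18 to 20 copies were also found at dyb-1, the dystrobrevin gene, with 189, Y53G8AM.7 with 94.8, kin-1, which encodes the catalytic subunit of protein kinase A, with 289, and kal-1, the anosmin gene, with 85.3. Their spread from 85.3 to 546, gsa-1 included, spans most of the range of ranks, from 83 to 4573.

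GA-repeat peaks lay farther from gene starts than other peaks. Their median distance to the nearest protein-coding 5′ end was 1915 bp, against 1230.5 bp. Within 2000 bp of a 5′ end were 286 (51.3%) against 61.4% of other peaks, an odds ratio of 0.660 (Fisher's exact adjusted p = 7.46e-06). The difference was widest just upstream, where 91 (16.3%) lay at 0 to 500 bp against 31.1% (odds ratio 0.431, Fisher's exact adjusted p = 1.13e-13). It was 0.449 in the list of replicate 2 alone and 0.453 in that of replicate 1. Seen from the peaks, 6.49% (95% interval 5.25 to 7.90%) of those 0 to 500 bp upstream had a repeat, against 19.1% (15.7 to 22.8%) of those 1000 to 2000 bp upstream. Seen from the genome, the shares of repeats at a summit were 10.4% (8.55 to 12.4%) of 1024 repeats 0 to 500 bp upstream and 13.4% (11.1 to 15.9%) of 806 repeats 1000 to 2000 bp upstream, intervals that overlap. On the downstream side only 4.56% (2.77 to 7.02%) of 417 repeats within 500 bp were at a summit. GA-repeat peaks were also less often between 2 genes that read away from each other, at 176 (31.5%) against 36.2% (odds ratio 0.811, Fisher's exact adjusted p = 0.0306). That call was lost in the list of replicate 2 alone (odds ratio 0.905, exact adjusted p = 0.311).

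**Figure D4:**
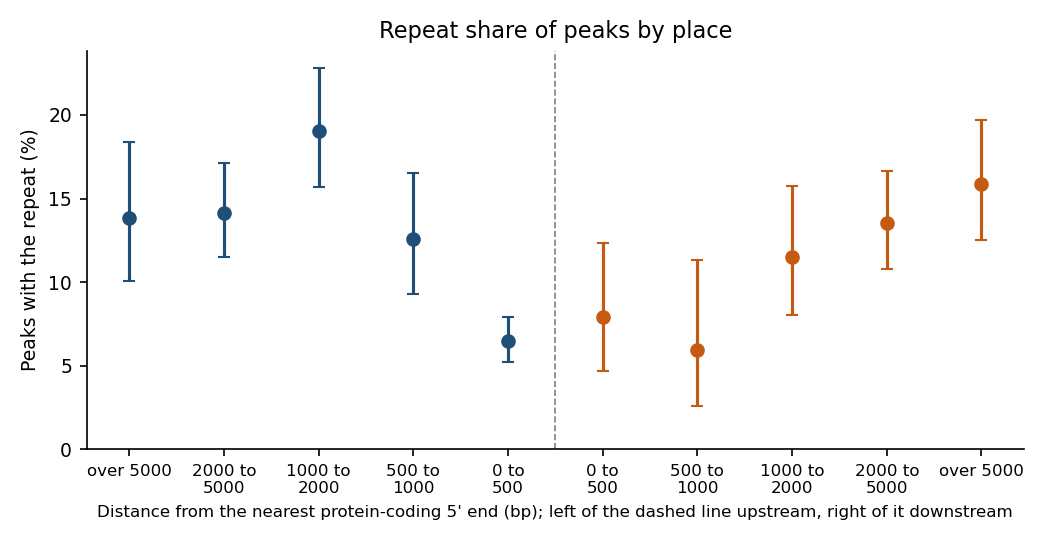
Percentage of peaks with the repeat (y axis) by distance in bp from the nearest protein-coding 5′ end (x axis), upstream left of the dashed line and downstream right of it. Points are shares with exact 95% intervals; the lowest upstream share, 6.49%, was at 0 to 500 bp and the highest, 19.1%, at 1000 to 2000 bp.

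The repeats had a strand preference against the gene. Of the 286 members within 2000 bp of a 5′ end, the longest run read GA on the coding strand in 100 (35.0%) and CT in the rest (exact binomial test, two-sided, adjusted p = 8.26e-07). Upstream of the gene it was 77 of 228 (33.8%, exact binomial adjusted p = 1.08e-06). In comparisons chosen after seeing the data, the same was asked of host genes and of repeats away from summits. Of 185 intronic members inside 1 protein-coding gene 72 (38.9%) read GA on the coding strand of that gene (exact binomial p = 0.00317). Repeats of the genome within 100 bp of a summit and those over 1000 bp from any summit were compared by side of the gene. At 0 to 2000 bp upstream 32% of 1809 repeats away from summits read GA on the coding strand, against 36.5% of 263 repeats at summits (odds ratio 1.22, 95% intervals 29.9 to 34.2% and 30.7 to 42.6%, Fisher's exact adjusted p = 0.212). Downstream, at 0 to 2000 bp, it was 48.9% of 1178 repeats away from summits (46.0 to 51.8%) and 36.5% of 63 at summits (24.7 to 49.6%), an odds ratio of 0.601 (Fisher's exact adjusted p = 0.180). A difference between repeats at and away from summits did not pass on either side, and only upstream did the repeats away from summits have a lean of their own.

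Of the 558 summits 315 (56.5%) were intergenic, 186 (33.3%) in introns, 31 (5.56%) in genes of other biotypes, 16 in 5′ UTRs, 7 in 3′ UTRs and 3 in coding exons. Intron summits were more frequent than among other peaks, at 33.3% against 27.5% (odds ratio 1.32, Fisher's exact adjusted p = 0.0301). The call did not hold in either replicate list alone, with odds ratios of 1.20 and 1.21 (exact adjusted p = 0.184 and 0.188), or among the peaks above the median signal (1.33, adjusted p = 0.181). It also depended on the baseline: against the 209 flanking windows with a repeat, 40.7% of which were intronic, the odds ratio was 0.729 (Fisher's exact adjusted p = 0.0934). Coding exons held 0.538% of members against 1.89% of other peaks (odds ratio 0.280, Fisher's exact adjusted p = 0.0459) and 8.13% of the flanking windows with a repeat (odds ratio 0.0610, adjusted p = 4.60e-07). With 3 members this class is small, and the call against other peaks was lost among the peaks above the median signal (0.632, exact adjusted p = 0.910).

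The members were unevenly spread over the chromosomes. Chromosome X held 69 (12.4%) of them against 23.2% of other peaks, an odds ratio of 0.467 (Fisher's exact adjusted p = 7.10e-09). Chromosome I held 135 (24.2%) against 17.2% (odds ratio 1.54, exact adjusted p = 0.000312) and chromosome III 107 (19.2%) against 15% (odds ratio 1.34, adjusted p = 0.0256). The call for III ended among the peaks above the median signal (1.38, exact adjusted p = 0.0882). It also ended with windows of 50 bp and of 200 bp to either side (both 1.20, exact adjusted p = 0.305 and 0.164). Chromosomes II, IV and V, with 79, 95 and 73 members, did not pass (adjusted p = 0.491, 0.280 and 0.491 by the same exact test). Expressed as a share of each chromosome's peaks, 15.7% had a repeat on chromosome I, 14.4% on III, 13.2% on IV, 10.8% on both II and V, and 6.58% on X.

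The repeats themselves are unevenly spread as well. The genome held 90.8 GA repeats per Mb on chromosome I, 86.1 on III, 76.1 on II, 72.7 on IV, 59.3 on X and 52.5 on V. Flanking windows had a repeat in 1.00% of cases on X and in 2.03% on I. Set against the genome's own repeats in place of the other peaks, the odds ratio was 0.818 for X (Fisher's exact adjusted p = 0.239), 1.19 for III (adjusted p = 0.239) and 1.34 for I (adjusted p = 0.0282). The low share on X did not pass the threshold with this baseline. The baseline counts repeats whereas members are peaks, it includes the members' own repeats, and it ignores the number of peaks per chromosome. Whether the number of repeats accounts for the low share on X was not tested. Against other peaks, in a split chosen after seeing the data, the odds ratio for X was 0.669 within 2000 bp of a 5′ end (exact adjusted p = 0.0641) and 0.292 farther away (exact adjusted p = 6.98e-11), and the difference between these 2 was not tested.

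**Figure D5:**
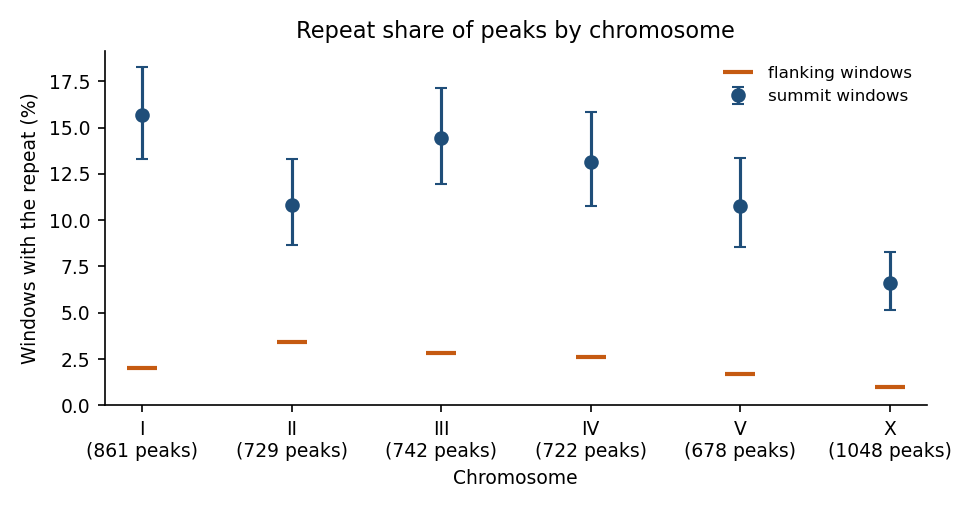
Percentage of windows with the repeat (y axis) on each chromosome (x axis), as points for summit windows with exact 95% intervals and as short lines for flanking windows. The share of summit windows ran from 6.58% on X to 15.7% on I, and the flanks from 1.00% on X to 3.43% on II.

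The windows of the members differed from other summit windows in more than the repeat. GC content was above the median of all windows in 375 members (67.2%) against 45.3% of other peaks (odds ratio 2.47, Fisher's exact adjusted p = 1.91e-21), with medians of 44.8% and 41.3%. With the repeat itself left out the median was 44.5%. TAATTA, a sequence that homeodomains recognise, was in 33 members (5.91%) against 11.6% of other peaks (odds ratio 0.479, Fisher's exact adjusted p = 0.000104, over 11 motifs and compositions searched on both strands). Within 50 bp to either side of the summit the difference did not pass (0.650, exact adjusted p = 0.528). TAATTA holds only A and T, and the motif comparisons were not matched for GC content. TAATNNNATTA, the palindrome of paired-type homeodomains, was in 5 members (0.896%) against 2.01% (odds ratio 0.440, exact adjusted p = 0.108). The E-box CANNTG, the site of bHLH factors, was in 49.8% against 56.1% (odds ratio 0.776, exact adjusted p = 0.0137), a call that ended among the peaks above the median signal (0.815, exact adjusted p = 0.219). The E-box call also ended with 3 or more copies (0.901, exact adjusted p = 0.152) and with 5 or more (0.885, exact adjusted p = 0.568). So it did within 50 bp to either side of the summit (0.879, exact adjusted p = 0.737). The CpG count was above the median in 35.8% against 42.7% (odds ratio 0.750, exact adjusted p = 0.00808), and in the list of replicate 2 alone the odds ratio was 0.988 (exact adjusted p = 0.937). The GATA site GATAAG, the TATA box TATAAA, the palindromic E-box CACGTG, the POU octamer ATGCAAAT, the poly-T run TTTTTTTT and the GC box GGGCGG did not pass. TATAAA was in 9.50% against 12.9% (odds ratio 0.711, exact adjusted p = 0.0534), and it passed in the list of replicate 2 alone (0.606, exact adjusted p = 0.00471) and of replicate 1 alone (0.693, exact adjusted p = 0.0386). It also passed among the peaks above the median signal (0.566) and with 200 bp to either side (0.589, exact adjusted p = 2.14e-08). With 200 bp to either side GGGCGG passed as well (1.38, exact adjusted p = 0.00529). CACGTG is also an E-box, so these 2 overlap. A match is a run of letters and no measured site.

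Other repeats went along with GA to different degrees, in a comparison chosen after seeing the data. A CA repeat stood in the same window in 80 members (14.3%) against 6.42% of other peaks (odds ratio 2.44, Fisher's exact adjusted p = 3.04e-09). GC repeats were in 1.43% against 1.75% (odds ratio 0.815, exact adjusted p = 0.972) and GAA repeats in 2.51% against 2.68% (odds ratio 0.936, adjusted p = 1). No member held a TA repeat, which allows a share of up to 0.659% by the exact interval, against 0.450% of other peaks.

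A gene was counted as having a GA-repeat peak where a member's summit lay within 2000 bp of its 5′ end and no other protein-coding 5′ end was nearer. Of 19973 protein-coding genes, 271 (1.36%) had one and 2492 (12.5%) had any peak, so that 10.9% of genes with a peak had a GA-repeat peak. Members in 25 lists of gene families and pathways were counted beside that background, with no test of the lists. The 1517 genes of the lists held 44 with a GA-repeat peak.

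Ribosomal protein genes had many peaks and no GA-repeat peak, beside a share of 10.9% over all genes with a peak. Of 48 genes of the large subunit 24 had a peak, as did 12 of 31 of the small subunit, and 0 of either had a member. Whether these counts of 0 differ from the background was not tested. Peaks 0 to 500 bp upstream of a gene had a repeat in only 6.49% of cases, and the place of the ribosomal peaks was not compared. Proteasome genes, with 10 of 33 bearing a peak, had none, and neither did the FMRFamide-like and neuropeptide-like genes, with 10 of 102. With so few genes bearing a peak, a count of 0 in either list is close to the 10.9% share over all genes with a peak. Among mitochondrial ribosomal proteins 20 of 66 had a peak and 1 a member, mrpl-15.

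Lists of genes with neuronal functions fell on both sides of the 10.9% background. Of 34 pan-neuronal and synaptic vesicle genes 26 had a peak and 5 a GA-repeat peak, led by unc-64 (syntaxin), unc-11 (the clathrin adaptor AP180) and snn-1 (synapsin). The unc-64 summit lay 1274 bp upstream with 12 copies and a signal of 220 (100 in replicate 1 and 122 in replicate 2), and a second member at the gene, 1073 bp upstream, had 85.7. Of 21 potassium and calcium channel genes with a peak 5 had a member, led by shl-1 (a voltage-gated potassium channel), unc-80 (a partner of the NALCN sodium leak channel) and ccb-1 (a calcium channel beta subunit). Of 19 axon guidance genes with a peak 4 had a member, led by mab-20, lin-18 (a Ryk-type Wnt receptor) and unc-51 (the ULK kinase). On the list of neuronal RNA-binding and splicing genes it was 4 of 15, led by unc-76, mec-8 and unc-75; mec-8 and unc-75 act in splicing, whereas unc-76 encodes a FEZ-type axonal transport adaptor. Among adhesion genes it was 4 of 19, led by zig-1, hmr-1 (classical cadherin) and sdn-1 (syndecan). In other neuronal lists it was 1 of 18 (5.56%) for kinesins and axonal transport and 1 of 8 (12.5%) for glutamate receptors. It was 1 of 4 (25%) for acetylcholine receptors and none of 10 for the neuropeptide genes.

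Of 13 chromatin regulator genes with a peak 4 had a member, led by lin-59 (related to trithorax-group Ash1), met-1 (a histone methyltransferase) and let-526 (an ARID subunit of SWI/SNF). The lin-59 summit had a run of 9 copies and a signal of 206 (110 and 102 in the replicates). Basic helix-loop-helix genes had 2 of 9 (aha-1 and hlh-11), homeobox genes 2 of 19 (zfh-2 and ceh-58) and ciliary genes 2 of 5 (klp-20, a kinesin-II motor, and daf-19, the RFX factor of ciliated cells). Rab and vacuolar sorting genes had 2 of 19, vps-60 and rab-10. The other lists had 1 gene each: dnj-13 of the chaperones, ife-4 (eIF4E) of the translation factors, glr-4 of the glutamate receptors, gar-2 (a muscarinic receptor) of the acetylcholine receptors, nhr-1 of the nuclear hormone receptors, col-55, his-68, unc-112 (kindlin) of the muscle genes, klp-20 of the kinesins and akt-2 of the insulin pathway.

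Neither unc-42 itself nor eor-1, daf-16, zoo-1 or glr-1 had a GA-repeat peak of its own. daf-16, the FoxO factor of the insulin pathway, had 4 peaks whose longest run was 3 copies, and glr-1, a glutamate receptor gene of the command interneurons, had 1 peak with 3 copies. The single eor-1 peak held no run beyond 1 copy, and unc-42 had no peak.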

How the data were processed

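The data were ChIP-seq peak lists of 2 biological replicates of 1 group. Per the deposited files, the ce11 set used here consists of 4 lists in narrowPeak format: 1 relaxed list per replicate, 1 for the pooled replicates and 1 optimal IDR set. The signal value of each entry is a score that the authors deposited with each peak, on its own scale in each list; it was used only to order peaks within a list. Which aligner and peak caller made them is not given in the sources used here. The ce10 lists were not used. Depth is unknown.

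Summits were the deposited start plus summit offset, given 1-based. Sequence came from RefSeq WBcel235 and genes from Ensembl release 115 on the same assembly. Tandem runs and motifs were searched on both strands in windows of 100 bp to either side of a summit with Python 3.11.15 and SciPy 1.17.1. Feature classes were given in a fixed priority. Windows 1000 bp away served as flanks and were compared by the exact McNemar test, keeping the larger p of the 2 sides. Shares of peaks were compared by Fisher's exact test and strands by the exact binomial test, all two-sided. P-values were adjusted by Benjamini-Hochberg within each family, with a threshold of 0.05. Neighbouring peaks are not independent and peaks are not replicates. The p-values cover counting error only and treat peaks as independent. Whether the replicates came from separate cultures is known only from the word biological in the labels. Replicates were left out by using the top 4780 entries of the other replicate's list. The scripts were tested on simulated data.

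Named genes were those nearest to the 15 members of highest signal and the 8 longest runs, up to 3 per gene list, and eor-1, daf-16, unc-42, zoo-1 and glr-1. Members, gene lists and tests were chosen with earlier results of these data known. Of the symbols in the lists 8 were not found and 7 genes stood in more than 1 list.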

Additional observations from a re-analysis of the deposited data

Results flagged for a closer look

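The repeat was also frequent at entries that the report's comparisons do not use, those of the relaxed pooled list below the optimal set. Of the 5220 pooled entries ranked 4781 to 10000 by signal, 343 (6.57%, exact 95% interval 5.91 to 7.28%) held a GA repeat in the summit window, against 2.16% of their own flanking windows. The share was 3.92% at ranks 10001 to 15000 and 2.52% from rank 15001 on, where the flanks had 1.70%. These relaxed entries include regions that did not pass the authors' optimal threshold.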

How the results depend on the processing

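Odds ratios or ratios to flanks are given unless a count is named. Results that kept their direction and call in each replicate list alone included the GA ratio (5.14 to 5.58), chromosome X (0.463 to 0.515) and chromosome I (1.42 to 1.46). They also included 0 to 500 bp upstream (0.449 to 0.453), the distance limit (0.686 to 0.716), strand (0.481 to 0.528) and signal (1.29 to 1.40). Chromosome III (1.35 to 1.41), coding exon (0.196 to 0.285), GC content (2.31 to 2.73), TAATTA (0.406 to 0.580) and the E-box (0.736 to 0.797) kept theirs as well. With 1 replicate left out, intron ran from 1.20 to 1.21, divergent 5′ ends from 0.773 to 0.905, CpG count above the median from 0.788 to 0.988, 5′ UTR from 0.875 to 1.12, other biotypes from 0.930 to 1.03 and GATAAG from 0.844 to 1.01. Only peaks above the median signal gave 0.971 for signal, 0.668 for support by both replicates, 0.632 for coding exon, 1.33 for intron and 0.863 for divergent ends. With 3 or more copies, support was 1.20 and passed, intron 1.04, CpG 0.929, divergent ends 0.888, other biotypes 1.17 and intergenic 1.01; with 5 or more, coding exon was 0.374 and GGGCGG 0.998. A window of 50 bp to either side gave coding exon 0.354, intron 1.30, divergent ends 0.780 and GGGCGG 0.815; one of 200 bp to either side gave coding exon 0.401, CpG 1.05, CACGTG 0.935 and, past the threshold only there, GGGCGG 1.38. With flanking windows as the baseline, intron was 0.729, intergenic 1.85 and other biotypes 1.70; with genome repeats, X was 0.818 and IV 0.947. Summits shared within 50 bp gave 0.845 for support, 1 peak per cluster gave 0.987 for GGGCGG, intron summits alone gave 1.35 for signal and the upper 10% of signal 1.10. In splits chosen after seeing the data, summits over 2000 bp from a 5′ end gave 1.13 for signal, 0.292 for X and 1.28 for chromosome II; those within it gave 1.48 for signal, 0.669 for X, 0.904 for IV and 1.08 for V; and off X, coding exon was 0.386. Genes with a GA-repeat peak numbered 160 at a limit of 1000 bp and 414 at 5000 bp, against 271. The cause of these changes was not tested. Without read counts no error per peak can be given. No paired analysis was possible because there was 1 group.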

Other observations

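The printed fmi-1 stretch runs on from the repeat into CGC, and a motif of 9 letters, GAGACGCAG, was chosen after the sequences were seen. It is therefore given as counts with no test. It stood in 106 of the 558 GA-repeat peaks (19%, exact 95% interval 15.8 to 22.5%) and in 327 of the other 4222 (7.75%, 6.96 to 8.59%). Of all summits 433 (9.06%) held it, against 1.06% of the flanking windows and 0.795% of windows tiled over the genome. The letters overlap those of a GA run, but in only 14 of the 106 members did a match touch the repeat. The share was 8.72% in the upper 4780 entries of replicate 1 and 8.89% in those of replicate 2. A GA repeat, this motif or both were at 885 summits (18.5%). Of the other peaks with the motif 39.8% lay 0 to 500 bp upstream of a gene, against 31.1% of all other peaks. Among GA-repeat peaks it was 19.8% with the motif and 15.5% without it. Members with the motif had a median signal of 162 and members without it 146, but the upper quartiles were 203 with it and 217 without it.

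The summits of GA-repeat peaks with runs of 10 or more copies lay a median of 3519 bp from the nearest 5′ end, against 1734.5 bp for runs of 4 copies. Of the 8 longest runs, those at sea-2, daf-2, Y53G8AM.7, gsa-1 and kin-1 were in introns. The Y53G8AM.7 summit lay 5256 bp upstream of that gene, in an intron of another gene.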
